A study of Mus musculus with 12 samples.

Results

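Expression of 10 circadian clock genes, Arntl, Npas2, Per1, Per2, Per3, Cry1, Nr1d1, Nr1d2, Dbp and Tef, was described in mouse kidney by RNA-seq. The genes were found by symbol in the table that compares kidneys after surgery, and they are 10 of the 24062 genes counted. They were chosen with the surgery values of these libraries known, so their differences between surgery groups are given as a description without a test. All 10 passed the filter on low counts, which left 14970 genes. The 12 mice belonged to a Pkd1 model of polycystic kidney disease, were given tamoxifen as adults and were operated on at 6 to 8 weeks of age. In UNx mice (unilateral nephrectomy) 1 kidney was taken out, and in sham mice both were kept; kidney RNA was collected 4 weeks later. Mice labelled CrePlus carried Cre, whose induction by tamoxifen is meant to delete Pkd1, and mice labelled CreMinus did not. There were 3 libraries each of UNx CrePlus, UNx CreMinus, sham CrePlus and sham CreMinus kidneys. The labels name neither the promoter that drives Cre nor the deleted part of Pkd1, the hour at which kidneys were taken, or the light schedule. They do not say whether mice of a group shared a litter or cage, so p-values measure the spread between these libraries.

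The molecular clock is a feedback loop of transcription that runs with a period of about a day in almost every cell, kidney tubule cells included. BMAL1, the product of Arntl, pairs with CLOCK or NPAS2 and activates the Per, Cry, Nr1d and Dbp genes through E-box elements, and PER and CRY proteins then repress that activity. The REV-ERB proteins encoded by Nr1d1 and Nr1d2 repress Arntl and Npas2, so Arntl and Npas2 peak at an opposite time of day from Nr1d1, Nr1d2 and Dbp. DBP and TEF activate genes with a D-box, among them Per genes. In kidney the clock is known for daily rhythms in salt transport and filtration.

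RefSeq promoter windows (build GRCm38.p6, from 250 bases before to 50 bases after each start site) were matched by gene number for 9 of the 10 genes, as 12 windows. Per2 was not matched. Both strands were searched for the E-box CACGTG, the D-box TTATGNAA and AGGTCA, the core of the element bound by REV-ERB and ROR proteins. These letters were present in 7.15%, 3.39% and 16.3% of all 32817 windows of that length. The E-box was present in windows of Per1, Cry1 and Tef, the D-box in Per1 and Per3, and the AGGTCA core in Per1, Nr1d2 and a window of Arntl, there 31 bases after the start. The windows of Npas2, Nr1d1 and Dbp held none of these letters. The stretches below are shown because they hold matches to the letters of elements that clock proteins can bind, with the matches in capitals. Each stretch is read 5′ to 3′ on the strand of its gene. Per1 lies at chr11:69098773-69098942 on the plus strand, Per3 at chr4:151044806-151044880 on the minus strand, Cry1 at chr10:85185089-85185134 on the minus strand, Nr1d2 at chr14:18239158-18239203 on the minus strand and Tef at chr15:81811256-81811301 on the plus strand.
Per1: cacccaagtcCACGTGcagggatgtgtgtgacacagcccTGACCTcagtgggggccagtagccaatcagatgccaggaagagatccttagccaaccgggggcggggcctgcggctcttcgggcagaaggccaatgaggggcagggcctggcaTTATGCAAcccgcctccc
Per3: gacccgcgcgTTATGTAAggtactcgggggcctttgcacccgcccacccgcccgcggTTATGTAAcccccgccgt
Cry1: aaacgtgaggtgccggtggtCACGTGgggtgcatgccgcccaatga
Nr1d2: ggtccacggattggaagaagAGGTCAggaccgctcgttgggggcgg
Tef: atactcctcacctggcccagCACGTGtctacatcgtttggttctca
In Per1 the E-box began 166 bases, the core (on the other strand, TGACCT) 137 bases and the D-box 24 bases upstream of the start. Per3 held 2 D-boxes, at 205 and 158 bases upstream. A match of letters is a description and does not show a bound site.

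Depth fell into 2 ranges. All UNx CrePlus libraries and UNx CreMinus 1 were deep, with totals between 41699032 and 42785476 counts, and the other 8 had between 18914300 and 22480895. By Xist and Y-linked genes, UNx CrePlus 1 and 2, UNx CreMinus 1, sham CrePlus 3 and sham CreMinus 3 were male and the other 7 female. Library numbers in the titles ran from 1749 to 1754 for UNx and from 1744 to 1748 for sham libraries, except sham CrePlus 1 at 1755. If libraries were handled in this order, handling and surgery cannot be told apart, sham CrePlus 1 aside. Pkd1, the targeted gene, averaged 43.4 ± 3.28 CPM (counts scaled to the size of the library) in UNx CrePlus, 56.8 ± 12.9 in UNx CreMinus, 52 ± 10.5 in sham CrePlus and 65 ± 10.3 in sham CreMinus kidneys (SD, n = 3), and its log2 fold change with Cre, averaged over surgery, was -0.35 ± 0.128 (SE; edgeR adjusted p = 0.316). Markers of kidney tubules were abundant, with Slc34a1 of the proximal tubule at 5100 to 6950 CPM in all libraries. Of 5 markers of the adrenal cortex, Star was at 2.71 to 5.11 CPM, Cyp11a1 at 0 to 0.141, Cyp21a1 at 0 to 0.0507 and Cyp11b1 at 0 to 0.0232 CPM, and Cyp11b2 was at 0 in 12 of 12 libraries. In bulk kidney RNA, a change in the number of cells of a type and a change in RNA per cell cannot be told apart.

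Levels of different genes were set side by side per kilobase of annotated exon, with all annotated exons of a gene merged. The transcripts expressed may be shorter than that, so the order is rough and depends on the annotation. Nr1d1 had the highest mean level of the 10 genes at 50.6 ± 8.76 CPM per kilobase (SD over 12 libraries). Tef (41.7 ± 7.59), Dbp (32.5 ± 12) and Nr1d2 (27.5 ± 4.02) followed, and neighbours in this order differed by about the size of their SDs. Per1 was at 9.39 ± 2.84, Per2 at 3.79 ± 1.44 and Per3 at 3.15 ± 1.03 CPM per kilobase. Npas2 (1.47 ± 0.837), Arntl (0.988 ± 0.483) and Cry1 (0.732 ± 0.191) were lowest. The smallest counts in a library were 45 reads for Npas2, 58 for Arntl and 29 for Cry1.

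The comparison of UNx with sham kidneys asks how the kidney that remains differs 4 weeks after its partner was removed. Arntl and Npas2, the activators, had higher mean levels in UNx kidneys, and the other 8 genes had lower means. Arntl, Per3 and Tef separated the 6 UNx from the 6 sham libraries with no overlap. The fitted log2 fold changes ran from -0.82 to 1.10. Their median size was 0.482 against 0.0864 over all genes tested, which is given beside the members only to show the scale, because the members were chosen on this contrast.

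**Figure D1:**
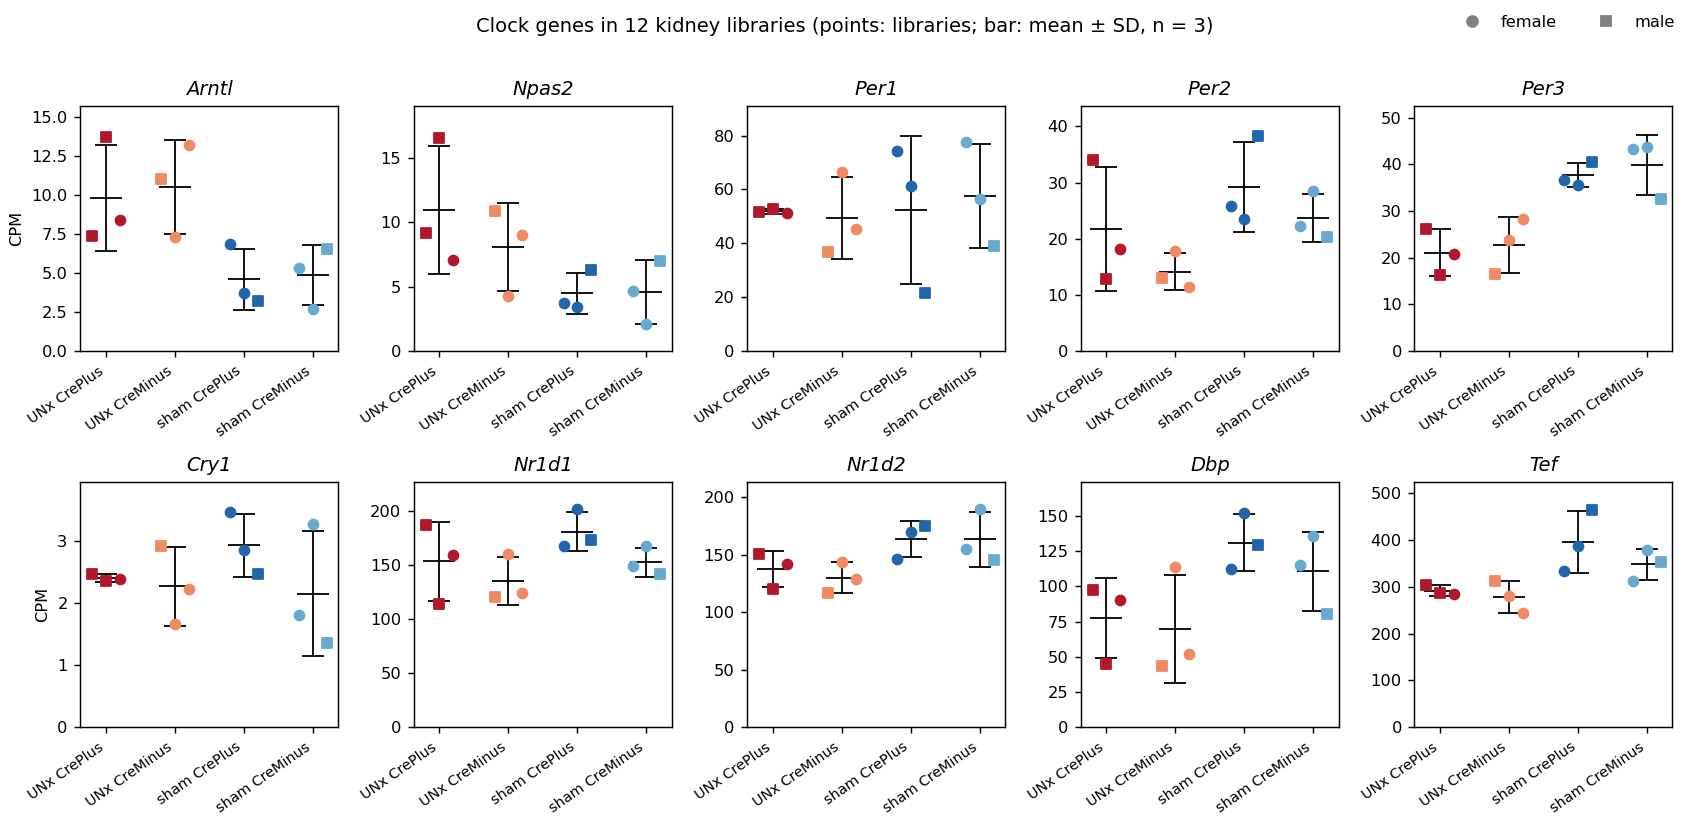
Level of each of the 10 clock genes in CPM (linear axis from 0) in the 12 libraries, by group, with circles for female and squares for male libraries and bars for the mean ± SD (n = 3). Arntl is higher, and Per3 and Tef lower, in every UNx library than in every sham library, whereas Per1 and Cry1 overlap broadly.

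Arntl (gene 11865, chromosome 7, 113178471 to 113314126) encodes BMAL1, the activator without which the loop does not run. Arntl was at 7.37, 13.7 and 8.36 CPM in UNx CrePlus and 11, 7.27 and 13.2 in UNx CreMinus kidneys, against 6.82, 3.73 and 3.21 in sham CrePlus and 5.34, 2.72 and 6.50 in sham CreMinus kidneys. Every UNx library lay above every sham library, and the nearest pair was UNx CreMinus 2 at 7.27 and sham CrePlus 1 at 6.82 CPM. In a model of all 12 libraries, the log2 fold change of UNx against sham was 1.09 ± 0.389 (SE) among CrePlus mice and 1.11 ± 0.390 among CreMinus mice, with a mean of 1.10 ± 0.275 over the 2 Cre classes. It was 1.06 in the females alone, 1.27 in the males alone and 1.07 in the 8 libraries of lower depth alone, which hold 2 UNx libraries, both CreMinus, and all 6 sham libraries.

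Npas2 (gene 18143, chromosome 1, 39193702 to 39363240) encodes the partner that can stand in for CLOCK. Npas2 was at 9.20, 16.6 and 7.12 CPM in UNx CrePlus and 10.9, 4.28 and 9.02 in UNx CreMinus kidneys, against 3.77, 3.40 and 6.33 in sham CrePlus and 4.66, 2.11 and 7.01 in sham CreMinus kidneys. UNx and sham libraries did not overlap within CrePlus mice and overlapped within CreMinus mice, where UNx CreMinus 2 lay below 2 sham libraries. Npas2 had a log2 fold change of 1.29 ± 0.483 in CrePlus mice, 0.81 ± 0.483 in CreMinus mice and 1.05 ± 0.341 over both. In the libraries of lower depth alone it was 0.53. Npas2 also went with sex: in UNx kidneys the males were at 9.20, 16.6 and 10.9 CPM and the females at 7.12, 4.28 and 9.02, and in sham kidneys the males were at 6.33 and 7.01 and the females at 3.77, 3.40, 4.66 and 2.11. Males lay above females in both kinds of kidney. Within sex, the log2 fold change of UNx against sham was 0.98 in females and 0.86 in males.

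The Per genes encode the repressors that close the loop with CRY proteins. Per3 (gene 18628, chromosome 4, 150997018 to 151044707), whose promoter stretch held the 2 D-boxes, was at 26.2, 16.2 and 20.7 CPM in UNx CrePlus and 16.4, 23.7 and 28.2 in UNx CreMinus kidneys, against 36.7, 35.6 and 40.5 in sham CrePlus and 43.3, 43.7 and 32.5 in sham CreMinus kidneys. The highest UNx library, at 28.2, stayed below the lowest sham library, at 32.5. Per3 had a log2 fold change of -0.84 ± 0.213 in CrePlus mice, -0.81 ± 0.214 in CreMinus mice and -0.82 ± 0.151 over both. It was -0.77 in females, -0.95 in males and -0.62 in the libraries of lower depth, and with terms for sex and depth -0.23 in CrePlus mice and -0.45 over both. All 3 UNx CrePlus libraries were deep and all sham libraries were not, so within CrePlus mice depth and surgery cannot be told apart without the UNx CreMinus libraries, of which 1 was deep and 2 were not. In the libraries of lower depth Per3 was at 23.7 to 28.2 CPM in UNx and 32.5 to 43.7 CPM in sham kidneys, without overlap.

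Per2 (gene 18627, chromosome 1, 91415977 to 91459351) was at 34.1, 12.9 and 18.2 CPM in UNx CrePlus and 13.1, 17.8 and 11.5 in UNx CreMinus kidneys, against 25.8, 23.5 and 38.3 in sham CrePlus and 22.2, 28.5 and 20.4 in sham CreMinus kidneys. All UNx libraries but UNx CrePlus 1 lay below all sham libraries, and that library lay above 5 of the 6. Per2 had a log2 fold change of -0.43 ± 0.326 in CrePlus mice, -0.75 ± 0.331 in CreMinus mice and -0.59 ± 0.232 over both. Without UNx CrePlus 1 the value in CrePlus mice was -0.91, and with terms for sex and depth it was -0.18.

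Per1 (gene 18626, chromosome 11, 69095108 to 69109965) is the Per gene that also answers quickly to hormones such as glucocorticoids. Per1 was at 51.8, 52.8 and 51.1 CPM in UNx CrePlus and 36.7, 66.3 and 45.3 in UNx CreMinus kidneys, against 74.4, 61.1 and 21.7 in sham CrePlus and 77.5, 56.6 and 39.0 in sham CreMinus kidneys. The UNx CrePlus libraries were within 2 CPM of each other, while the sham libraries covered a wide range with the 2 males lowest. The log2 fold change over both Cre classes was -0.12 ± 0.275, smaller than its error, and it was -0.32 in females and 0.66 in males.

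Cry1 (gene 12952, chromosome 10, 85131700 to 85185054) encodes the repressor that acts late in the cycle. Cry1 was at 2.48, 2.36 and 2.40 CPM in UNx CrePlus and 2.93, 1.66 and 2.23 in UNx CreMinus kidneys, against 3.48, 2.87 and 2.47 in sham CrePlus and 1.81, 3.29 and 1.36 in sham CreMinus kidneys. The groups overlapped, and the log2 fold change was -0.28 ± 0.312 in CrePlus mice, 0.09 ± 0.321 in CreMinus mice and -0.10 ± 0.224 over both. It was -0.40 in females and 0.44 in males. With terms for sex and depth it was -0.90 in CrePlus mice and -0.51 over both, and without sham CreMinus 2 it was 0.53 in CreMinus mice. The direction of Cry1 thus changed between fits, and with 29 to 114 reads a library Cry1 had the lowest counts of the 10.

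Nr1d1 and Nr1d2 encode REV-ERB alpha and beta, the nuclear receptors that repress Arntl and Npas2. Nr1d1 (gene 217166, chromosome 11, 98767932 to 98775377) was at 187, 114 and 160 CPM in UNx CrePlus and 121, 161 and 124 in UNx CreMinus kidneys, against 168, 202 and 174 in sham CrePlus and 149, 168 and 142 in sham CreMinus kidneys. The groups overlapped, and the log2 fold change over both Cre classes was -0.21 ± 0.124, with -0.11 in the libraries of lower depth alone and -0.13 with terms for sex and depth. Nr1d2 (gene 353187, chromosome 14, 18204056 to 18239106) was at 151, 120 and 142 CPM in UNx CrePlus and 117, 144 and 129 in UNx CreMinus kidneys, against 146, 170 and 175 in sham CrePlus and 155, 190 and 145 in sham CreMinus kidneys. Only UNx CrePlus 1 lay inside the sham range, so that within CreMinus mice UNx libraries lay below sham libraries with no overlap. Nr1d2 had a log2 fold change of -0.25 ± 0.134 in CrePlus mice, -0.33 ± 0.134 in CreMinus mice and -0.29 ± 0.0946 over both, and with terms for sex and depth -0.07 in CrePlus mice and -0.18 over both. In the annotation, 263 exonic bases of Nr1d1 (8.55%) are shared with Thra on the opposite strand, and the library kit does not mark strand, so reads there cannot be assigned by strand. Thra did not follow Nr1d1 across libraries (Pearson r = 0.0477 with group means removed, n = 12).

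Dbp and Tef encode the D-box activators that carry the clock's timing to other genes. Dbp (gene 13170, chromosome 7, 45705100 to 45710203) was at 97.6, 45.1 and 90.1 CPM in UNx CrePlus and 43.7, 114 and 52.3 in UNx CreMinus kidneys, against 112, 152 and 129 in sham CrePlus and 115, 136 and 80.7 in sham CreMinus kidneys. UNx libraries fell into 3 at 43.7 to 52.3 CPM and 3 at 90.1 to 114 CPM, and in CrePlus mice UNx lay below all sham libraries. Dbp had a log2 fold change of -0.75 ± 0.374 in CrePlus mice, -0.66 ± 0.375 in CreMinus mice and -0.71 ± 0.265 over both. It was -0.41 in the libraries of lower depth alone, and with terms for sex and depth -0.22 in CrePlus mice and -0.39 over both; without UNx CreMinus 2 the value in CreMinus mice was -1.2. Dbp shares 539 exonic bases (18%) with the gene Sphk2 on the opposite strand, and reads there cannot be assigned by strand.

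Tef (gene 21685, chromosome 15, 81802673 to 81826863), with an E-box in the stretch shown above, was at 304, 287 and 284 CPM in UNx CrePlus and 311, 280 and 243 in UNx CreMinus kidneys, against 333, 386 and 464 in sham CrePlus and 312, 378 and 352 in sham CreMinus kidneys. The groups touched without overlapping, at 311 CPM in UNx CreMinus 1 and 312 in sham CreMinus 1. Tef had a log2 fold change of -0.43 ± 0.138 in CrePlus mice, -0.32 ± 0.138 in CreMinus mice and -0.38 ± 0.0973 over both. It was -0.38 in females, -0.44 in males and -0.41 in the libraries of lower depth. Tef thus had the smallest fold and the smallest error of the 3 genes without overlap.

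**Figure D2:**
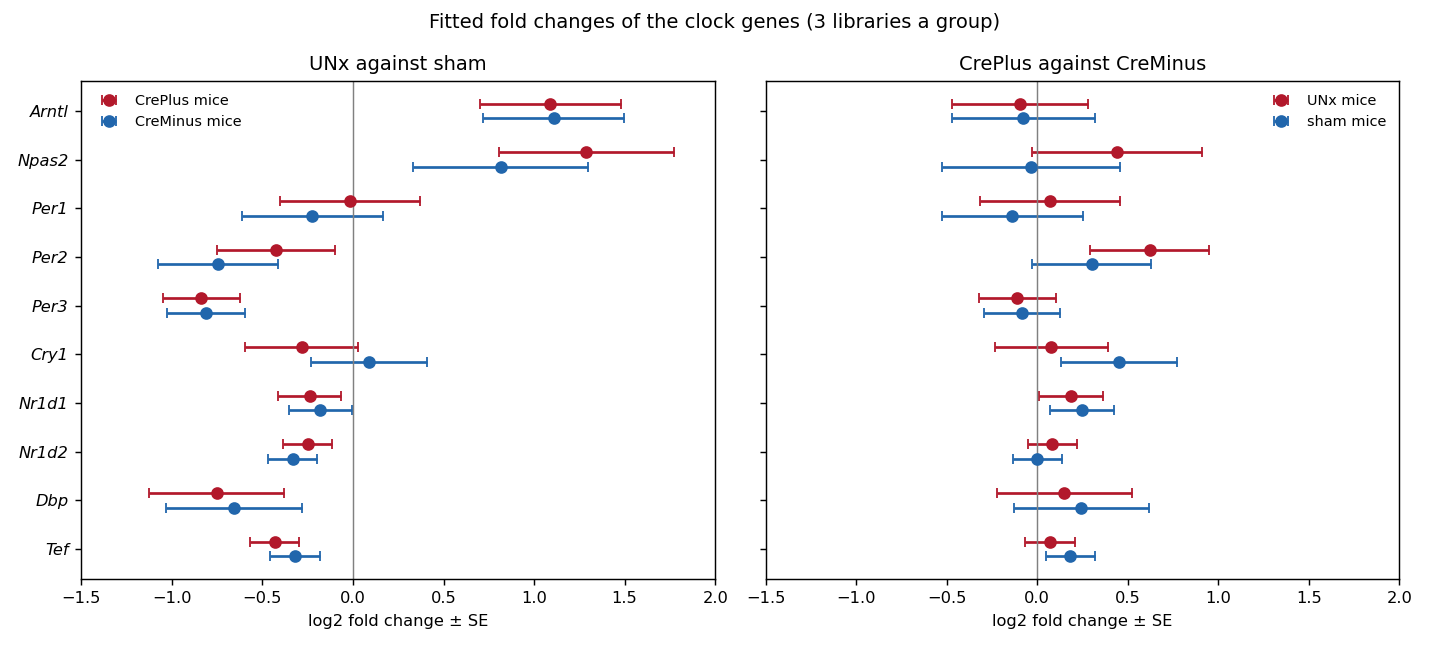
Fitted log2 fold changes (± SE) of the 10 clock genes, UNx against sham (left) in CrePlus and CreMinus mice and CrePlus against CreMinus (right) in UNx and sham mice, each from 3 libraries a group. For surgery, Arntl and Npas2 lie on the positive side and Per3, Dbp and Tef on the negative side in both kinds of mice; for Cre, values lie between -0.14 and 0.62.

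Counted over the 10 genes, 1 was higher with no overlap between 6 UNx and 6 sham libraries (Arntl), against 0.0668% of all genes, and 2 were lower (Per3 and Tef), against 0.0935%. Within CrePlus mice 2 genes were higher with no overlap (Arntl and Npas2, against 4.73% of all genes) and 3 lower (Per3, Dbp and Tef, against 5.05%). Within CreMinus mice 1 was higher (Arntl, against 2.67%) and 4 were lower (Per2, Per3, Nr1d2 and Tef, against 2.19%). These backgrounds are printed for scale, and nothing is read from them, since the genes were chosen on this contrast. With edgeR, 0 of 14970 genes passed an adjusted p under 0.05 for surgery averaged over Cre status (0%), 848 had an unadjusted p under 0.05, and DESeq2 called 8 genes (0.054%). Within CrePlus mice DESeq2 called 0.0774% and within CreMinus mice 0.0101% of all genes, and edgeR 0 genes in both (1022 and 194 had an unadjusted p under 0.05). In the authors' deposited table of UNx against sham, Per3 had a log2 fold change of -0.64 (standard error 0.116) and Arntl of 0.61 (0.14). That table gives 0.0337% of all genes an adjusted p under 0.05, the authors' second deposited version of it 0.109%, and the authors' deposited table for CrePlus mice 0.119%. Nothing is read from these shares about the clock genes, which were chosen on this contrast.

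The ratio of Per3 to Arntl reads in a library does not depend on how libraries are scaled. It was 3.55, 1.19 and 2.47 in UNx CrePlus and 1.5, 3.26 and 2.14 in UNx CreMinus kidneys, against 5.37, 9.54 and 12.6 in sham CrePlus and 8.11, 16.1 and 5 in sham CreMinus kidneys. Every UNx ratio was below every sham ratio, which had to follow because Per3 and Arntl each separated the groups, in opposite directions. Both genes were chosen on this contrast, so the ratio is a description and adds no support. The ratio of Dbp to Arntl reads was 13.2, 3.30 and 10.8 in UNx CrePlus and 3.99, 15.7 and 3.97 in UNx CreMinus kidneys, against 16.4, 40.7 and 40.1 in sham CrePlus and 21.4, 50 and 12.4 in sham CreMinus kidneys. The UNx and sham ranges overlapped only through sham CreMinus 3. In each of the 4 groups the ratio differed by more than 2-fold between mice.

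Markers of other cell types were read beside these genes. With surgery edgeR called 0 of them, as it called 0 of all 14970 genes, so these counts say nothing about cell types. The summed level of the liver list (Alb, Apoa1 and Ttr, 3 of 3 higher, 0 called by edgeR) was 108 to 300 CPM in UNx and 45.3 to 140 CPM in sham libraries. Ttr, a transport protein gene, was at 62.3 to 282 CPM in UNx and 34.7 to 119 CPM in sham libraries (log2 fold change 1.57 ± 0.346, edgeR adjusted p = 0.875, DESeq2 adjusted p = 0.00242). Alb, the defining liver gene, was at 10.6 to 45.4 CPM in UNx and 7.76 to 36.9 CPM in sham libraries. All 4 endothelial markers were higher and 0 were called, with sums of 295 to 374 CPM in UNx and 219 to 360 CPM in sham libraries. The leukocyte sum was 72.8 to 128 in UNx and 87.8 to 114 CPM in sham libraries (4 of 6 markers higher, 0 called), and the adipocyte sum was at most 0.231 CPM in all libraries but sham CrePlus 3, at 11.1 CPM. The part of these markers in the clock gene values was not tested.

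CrePlus and CreMinus kidneys were compared to find whether the clock genes differ with Cre. No call was made for any of the 10 by edgeR or DESeq2. In UNx kidneys 0 of 10 were called by edgeR, against 0.14% of all genes, and 0 had an unadjusted p under 0.05; in sham kidneys 0 of 10 were called, against 0.0267%. Averaged over surgery 0 of 10 were called, against 0.521% of all genes, and 0 had an unadjusted p under 0.05. DESeq2 called 0 of 10 in UNx kidneys (1.21% of all genes), in sham kidneys (0.284%) and averaged over surgery (2.41%). By the authors' deposited adjusted p-values, 0 of 10 were called in UNx kidneys (1.84%), in sham kidneys (0.216%) and in sham kidneys without sham CrePlus 1 (0.309%). Per2 came nearest, at 21.7 ± 11 CPM in UNx CrePlus against 14.1 ± 3.29 in UNx CreMinus kidneys and 29.2 ± 7.95 in sham CrePlus against 23.7 ± 4.22 in sham CreMinus kidneys (SD, n = 3), with a log2 fold change of 0.46 ± 0.232 averaged over surgery (edgeR adjusted p = 0.462). In UNx kidneys Per2 had 0.62 ± 0.329 (edgeR adjusted p = 0.535), where UNx CrePlus 1 held the highest value. Over 20 alternatives to the main fit, the value of Per2 averaged over surgery ran from 0.104 to 0.868. All UNx CrePlus libraries were deep, and of the UNx CreMinus libraries only UNx CreMinus 1, so Cre and depth are partly confounded in UNx kidneys. Nr1d1 was the 1 gene of the 10 without overlap between Cre classes. It was higher in the sham CrePlus libraries, at 168, 202 and 174 CPM, than in the sham CreMinus libraries, at 149, 168 and 142 CPM, where the nearest values differed by less than 1 CPM (log2 fold change 0.25 ± 0.175, edgeR adjusted p = 1.0). Of all genes, 4.66% were higher and 3.49% lower without overlap in sham kidneys, and 8.33% and 7.47% in UNx kidneys, where 0 of the 10 were. Over all 6 CrePlus against all 6 CreMinus libraries 0 of the 10 were without overlap, against 0.882% of all genes higher and 0.394% lower.

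For Arntl and Per3, both without overlap between surgery groups, the Cre values were smaller than their errors. Arntl had a Cre log2 fold change of -0.10 ± 0.377 in UNx and -0.08 ± 0.395 in sham kidneys (edgeR adjusted p = 0.957 and 1.0), and Per3 had -0.11 ± 0.213 and -0.08 ± 0.212 (0.896 and 1.0). Npas2 had 0.44 ± 0.469 in UNx and -0.03 ± 0.490 in sham kidneys (0.786 and 1.0). The median Cre log2 fold change of the 10 genes averaged over surgery was 0.161, and that of all genes was -0.00299. The interaction asks whether the surgery difference itself depended on Cre. It was called for 0 of 10 genes, against 0% of all genes (277 genes had an unadjusted p under 0.05, none of them among the 10, and DESeq2 called 0). It was -0.02 ± 0.547 for Arntl, -0.03 ± 0.3 for Per3, 0.47 ± 0.678 for Npas2 and 0.32 ± 0.463 for Per2 (edgeR adjusted p = 1.0 for all 4).

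How the clock genes vary between mice of the same group does not use the contrasts that chose them. After the mean of each group was taken away from the log2 CPM, Dbp, Nr1d1 and Nr1d2 deviated together, and Arntl and Npas2 deviated against them. Correlations were computed for 55 pairs, 45 of them between clock genes, over 12 libraries, with an exact two-sided permutation test within groups (1296 arrangements, smallest possible p 0.000772) and adjustment over the 55 pairs. Nr1d1 and Dbp had a Pearson r of 0.927 (permutation p = 0.000772, adjusted p = 0.0423) and a Spearman rho of 0.951 (permutation p = 0.000772, adjusted p = 0.0423). Nr1d2 and Dbp had r = 0.857 (permutation p = 0.00154, adjusted p = 0.0423) and rho = 0.874 (permutation p = 0.00154, adjusted p = 0.0423). These 2 of the 45 pairs passed on r. Without the 2 libraries farthest from the median of Nr1d1 and of Nr1d2, r with Dbp was 0.950 and 0.849.

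**Figure D3:**
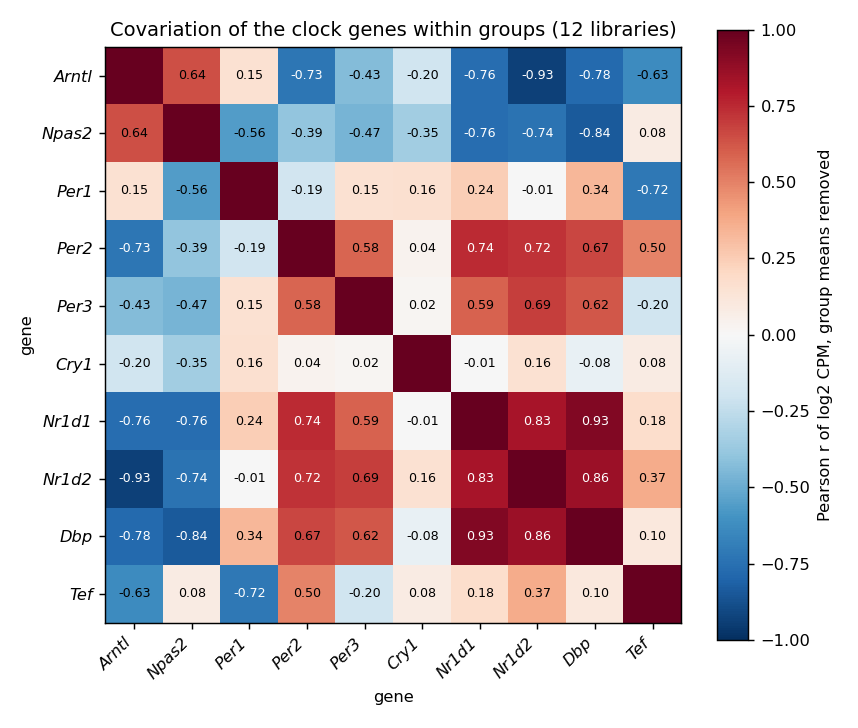
Pearson correlation between clock genes of log2 CPM with group means removed, over 12 libraries (red positive, blue negative, the value printed in each square). Nr1d1, Nr1d2 and Dbp form a positive block (0.83 to 0.93), Arntl and Npas2 are negative with all 3 of them (-0.93 to -0.74), and the row of Cry1 is pale.

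The negative pairs fell short on the adjusted p of r. Arntl and Nr1d2 had r = -0.934 (permutation p = 0.0054, adjusted p = 0.0594) and rho = -0.944 (permutation p = 0.00231, adjusted p = 0.0423). Arntl and Dbp had r = -0.777 (permutation p = 0.0054, adjusted p = 0.0594) and rho = -0.769 (permutation p = 0.00849, adjusted p = 0.0849), and Npas2 and Dbp had r = -0.837 (permutation p = 0.00772, adjusted p = 0.0607) and rho = -0.818 (permutation p = 0.0108, adjusted p = 0.0849). With the 2 libraries farthest from the median of the first gene left out, these r were -0.903, -0.822 and -0.784.

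These 5 pairs kept their sign within the batches that could be looked at. With sex taken away as well, r was 0.928 for Nr1d1 with Dbp, 0.846 for Nr1d2 with Dbp, -0.952 for Arntl with Nr1d2, -0.831 for Arntl with Dbp and -0.789 for Npas2 with Dbp. In the 8 libraries of lower depth the same r were 0.943, 0.753, -0.983, -0.799 and -0.786. In the 7 females alone they were 0.964, 0.721, -0.984, -0.830 and -0.807. There UNx CrePlus has a single library, which adds nothing once group means are removed, and each other group gives a single difference. The female r, that of Per3 below included, thus rest on few differences, reach large values easily and are weak evidence. The 5 male and 4 deep libraries were too few for a correlation. Per3 did not keep its sign: its r with Dbp was 0.62 over 12 libraries (permutation p = 0.154, adjusted p = 0.385; rho = 0.615, permutation p = 0.128, adjusted p = 0.351), 0.296 without the 2 farthest libraries and -0.947 in the females. Per1 with Per3 gave r = 0.154 (permutation p = 0.579, adjusted p = 0.802; rho = 0.105, permutation p = 0.731, adjusted p = 0.944). The summed leukocyte markers had r = 0.615 with Npas2 (permutation p = 0.0401, adjusted p = 0.184; rho = 0.720, permutation p = 0.0332, adjusted p = 0.166) and 0.276 once sex was taken away.

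**Figure D4:**
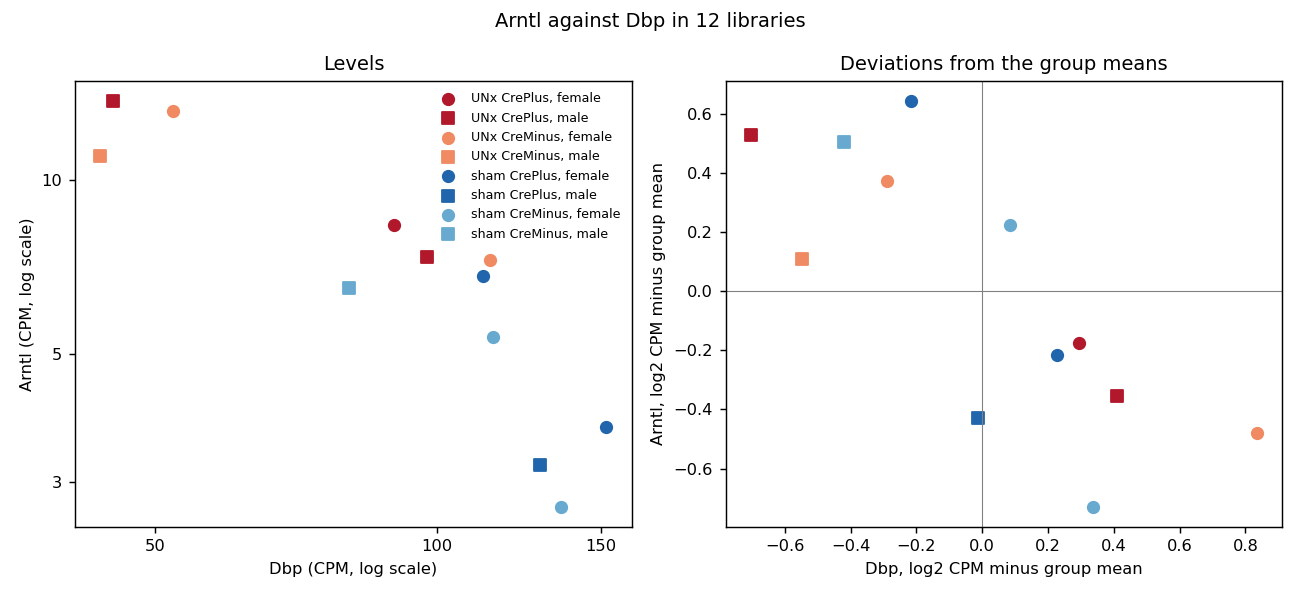
Arntl against Dbp in each library, as CPM on log axes (left) and as log2 CPM minus the group mean (right), coloured by group, with circles for females and squares for males. On the left the UNx libraries lie towards high Arntl and low Dbp; on the right, with group means removed, the points still run from upper left to lower right.

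Among all 12699 genes with a mean of at least 1 CPM and no systematic symbol such as Gm or Rik, those most like Dbp were ranked by the same correlation, without a test. The 8 highest were Sphk2 (r = 0.973), Epha1 (0.937), Nr1d1 (0.927), Slc5a6 (0.922), Bhlhe41 (0.921), Hrasls (0.920), Palm (0.917) and Sdf2l1 (0.916). Nr1d1 was the 1 member among them, and Bhlhe41 encodes DEC2, another repressor of the loop. Sphk2 is the gene that shares exonic bases with Dbp, so its likeness cannot be told apart from shared reads. The 8 lowest were Zscan21 (-0.904), Fbxo33 (-0.897), Zfp593 (-0.878), Limd2 (-0.876), Kdsr (-0.876), Fancd2os (-0.871), Nmi (-0.864) and Src (-0.862). Npas2 ranked 14 from the bottom and Arntl 42, and Nr1d2 ranked 19 from the top, of 12698 genes.

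For Arntl, Nr1d2 had the most negative correlation of all 12698 genes (-0.934), and was the 1 member among the 16 genes listed. The other 7 of lowest correlation were Mphosph8 (-0.898), Glis2 (-0.894), Nanp (-0.892), Fxr1 (-0.892), Epha1 (-0.886), Srp68 (-0.877) and Vldlr (-0.877). The 8 highest were Zc3h12d (0.967), Psmb9 (0.938), Klhdc8a (0.875), Ptprc (0.866), Lrrc14 (0.861), Psmb8 (0.861), H2-Eb1 (0.858) and Cd4 (0.856). Of these, Ptprc is the pan-leukocyte marker CD45, Cd4 marks helper T cells and H2-Eb1 antigen-presenting cells, and Psmb8 and Psmb9 are subunits of the immunoproteasome. The summed leukocyte markers had r = 0.426 with Arntl (permutation p = 0.24, adjusted p = 0.455; rho = 0.469, permutation p = 0.194, adjusted p = 0.41), and 0.389 without the 2 farthest libraries. The part of leukocyte RNA in the Arntl level was not tested.

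The other 19 genes of the clock machinery were all tested, and 0 were called by edgeR in any comparison. Of all genes, edgeR called 0% for surgery and for the interaction and 0.0267% to 0.521% for Cre. The count of 0 is near those shares, and nothing is read from it. For surgery averaged over Cre status, 7 were higher and 12 lower, with a median log2 fold change of -0.0703 against -0.00347 over all genes. Rorb, a relative of the ROR activators, had the smallest p, at 0.536 ± 0.229 CPM in UNx CrePlus and 0.757 ± 0.182 in UNx CreMinus against 1.02 ± 0.158 in sham CrePlus and 1.38 ± 0.551 in sham CreMinus kidneys (log2 fold change -0.90 ± 0.284, edgeR adjusted p = 0.875). Clock, the usual partner of BMAL1, had 0.17 ± 0.0804 (edgeR adjusted p = 0.884).

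For Cre averaged over surgery, 15 of the 19 were higher and 4 lower, with a median of 0.128 against -0.00299 over all genes. Clock was at 89.1 ± 0.67 CPM in UNx CrePlus against 70 ± 7.71 in UNx CreMinus and at 78.9 ± 8.61 in sham CrePlus against 62.2 ± 7.35 in sham CreMinus kidneys. CrePlus libraries lay above CreMinus libraries in each surgery group, where 8.33% of all genes in UNx and 4.66% in sham kidneys were higher without overlap. The log2 fold change of Clock was 0.34 ± 0.0804 without passing (edgeR adjusted p = 0.108). DESeq2 called Clock (adjusted p = 0.0155), where it called 2.41% of all genes. With a term for sex edgeR also called Clock (adjusted p = 0.0471), where it called 295 genes. In 17 of 20 alternatives to the main fit no listed gene outside the 10 was called for Cre averaged over surgery. Bhlhe41 was at 10.1 ± 5.06 CPM in UNx CrePlus against 4.16 ± 2.34 in UNx CreMinus and at 9.93 ± 2.02 in sham CrePlus against 5.65 ± 2.36 in sham CreMinus kidneys (log2 fold change 1.05 ± 0.329, edgeR adjusted p = 0.244, DESeq2 adjusted p = 0.049).

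Of 12 genes known as outputs of the clock, 0 were called by edgeR in any comparison, against at most 0.521% of all genes. For surgery averaged over Cre status 3 were higher and 9 lower (median log2 fold change -0.126). Tspan4 had -0.27 ± 0.0787 and Por, the electron donor of cytochrome P450 enzymes, -0.16 ± 0.0717 (edgeR adjusted p = 0.875 for both). For Cre averaged over surgery Sgk1, a kinase that raises sodium uptake, had -0.80 ± 0.342 (edgeR adjusted p = 0.397) and Por -0.12 ± 0.0717 (adjusted p = 0.528).

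Heat shock and cold-inducible genes follow body temperature, and glucocorticoid-induced genes follow a hormone with a daily rhythm. Over all genes, edgeR called 0% with surgery and 0.521% with Cre averaged over surgery, and DESeq2 called 2.41% with Cre averaged over surgery. Of the 9 temperature genes 2 were higher and 7 lower with surgery (median -0.0785, 0 called) and, with Cre averaged over surgery, 4 higher and 5 lower (0 called). For surgery Hsp90aa1 had 0.24 ± 0.141 (edgeR adjusted p = 0.894) and Hspa1a -0.36 ± 0.223 (adjusted p = 0.895). Of the 10 glucocorticoid-induced genes 7 were higher and 3 lower with surgery (median 0.0378, 0 called), with the phosphatase gene Dusp1 at 0.46 ± 0.196 (edgeR adjusted p = 0.875) and Errfi1 at 0.38 ± 0.186 (adjusted p = 0.889). With Cre averaged over surgery 3 of these 10 were higher and 7 lower (median -0.248 against -0.00299 over all genes). Errfi1, an inhibitor of the EGF receptor, was at 452 ± 161 CPM in UNx CrePlus against 757 ± 135 in UNx CreMinus and at 355 ± 96.5 in sham CrePlus against 569 ± 50.7 in sham CreMinus kidneys (log2 fold change -0.71 ± 0.187, edgeR adjusted p = 0.155, DESeq2 adjusted p = 0.0113). The CrePlus libraries lay below the CreMinus libraries in each surgery group. Of all genes, 7.47% were lower without overlap in UNx and 3.49% in sham kidneys.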

How the data were processed

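RNA was extracted from kidneys with a column kit, treated with DNase and made into libraries with the SMART-Seq v4 kit, per the labels' protocols. The deposited tables hold whole-number read counts per gene, the authors' mean normalized counts (a signal never below 0), log2 fold changes with standard errors, a test statistic (a score), p-values and adjusted p-values. The submitters' processing notes name HTSeq, DESeq2, cutadapt 1.11 and FastQC 0.11.5, and the builds mm10 and GRCm38. Aligner, annotation and strand use: not given in the sources used here. The 24067 deposited rows held 5 repeated symbols with identical counts, which were kept once. The counts were fitted with edgeR 4.0.16 in R 4.3.3 (filterByExpr, TMM, 1 quasi-likelihood model of 4 group means over 12 libraries, Benjamini-Hochberg adjustment over 14970 genes, threshold 0.05) and with DESeq2 1.42.0 as an alternative. Each SE is |log2 fold change| over the root of its F statistic. CPM are edgeR's, and log2 CPM used a prior count of 2. Scripts were tested on simulated data. Replicates are numbered in accession order. Fits with terms for sex or depth, within sex and without each library were also made, and the fits on libraries of lower depth were added after seeing the data; fits on 1 sex or on lower depth had additive terms for surgery and Cre. The clock genes, gene lists and naming rule (all 10 genes, up to 2 uncalled genes a list, 8 likest genes at each end) were chosen with earlier results of these data known. Exon lengths and overlaps come from GENCODE M21, and gene positions from RefSeq GRCm38.p6. PCR copies could not be told from separate molecules.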

Additional observations from a re-analysis of the deposited data

Results flagged for a closer look

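Among the 6 UNx libraries, Per2 in UNx CrePlus 1 stood apart at 34.1 CPM, with the next highest at 18.2 CPM. The gap was 0.704 of the whole range, above the limit that Dixon's test sets for 6 values at the 95% level. Chance alone sets apart about 1 in 20 such groups, and 20 groups of clock gene values were looked at.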

How the results depend on the processing

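No paired analysis was possible because the labels do not pair mice of different groups. For surgery averaged over Cre status, 1 gene of the 10 (Per3) was past DESeq2's threshold, against 0 in edgeR. Over all genes DESeq2 called 0.054% and edgeR 0%. The clock genes were chosen on this contrast, so that this is a count and no test of them. Of the listed genes outside the 10, for Cre averaged over surgery, DESeq2 called 3 (Clock, Bhlhe41, Errfi1), a sex term 1 (Clock) and females alone 1 (Pdk4). In surgery fits the sign of the averaged fold change held in 20 of 20 alternatives for all clock genes except Per1 (16) and Cry1 (18). Cre fold changes averaged over surgery turned sign for Per1 with a sex term (0.0857) and with sex and depth (0.00437), for Per3 with sex and depth (0.15) and in males (0.344), for Arntl (0.102) and Nr1d2 (-0.051) in females, and for Npas2 at lower depth alone (-0.0328). Without each library in turn they ran from -0.209 to 0.152 for Per1, -0.296 to 0.0468 for Arntl, -0.00994 to 0.422 for Npas2 and -0.00142 to 0.0965 for Nr1d2. The cause was not tested. Clock genes among the 16 likest of Dbp numbered 4, and of Arntl 3, with group means kept, 2 of Arntl with sex removed, and 0 to 1 without each library. The counts over all genes moved more. In UNx kidneys 21 genes were called with Cre, against 188 with DESeq2, 112 with a sex term, 8 with sex and depth terms, 9 with the compared groups alone, 13 with DESeq2 size factors and 6 to 48 without each library. In sham kidneys the 4 became 42 with DESeq2, 10 with a sex term, 0 with the compared groups alone, and 0 to 3 without each library. Averaged over surgery the 78 became 385 with DESeq2, 295 with a sex term, 22 in females, 0 in males, 2 at lower depth and 25 to 136 without each library. With surgery, averaged, the 0 became 8 with DESeq2 and 14 without UNx CreMinus 3. Low read counts limit Cry1, Arntl and Npas2 most. With terms for sex and depth, the averaged surgery log2 fold change went from -0.825 to -0.446 for Per3 and from -0.0971 to -0.513 for Cry1. That of Arntl stayed at 1.1.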
